A study of Mus musculus with 6 samples.

Results

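The genes described here are 10 regulators of the G1 phase of the cell cycle, taken by name from the 18428 genes of a single-cell count matrix. They are the D-type cyclins Ccnd1, Ccnd2 and Ccnd3, their kinases Cdk4 and Cdk6, the E-type cyclin Ccne1, the Cdk inhibitors Cdkn1b (p27) and Cdkn2d (p19), the transcription factor gene Myc and the retinoblastoma gene Rb1. All 10 were present in the matrix. The names were selected on earlier results of the same matrix, that is, on levels in these 6 samples and the differences between them, so the values are given as descriptions.

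D-type cyclins are made when a cell receives a growth factor signal, such as Csf1 in macrophages, and activate Cdk4 and Cdk6. These kinases phosphorylate the Rb protein, which then releases E2F factors that switch on genes of DNA replication and cyclin E. Inhibitors of the Ink4 group (Cdkn2d among them) bind Cdk4 and Cdk6, inhibitors of the Cip/Kip group (Cdkn1b among them) act mainly on cyclin E with Cdk2, and Myc pairs with Max to drive genes of growth and cell cycle entry. LPS, a bacterial cell wall component sensed by TLR4, is known to hold back the proliferation of macrophages that grow in Csf1.

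The cells were macrophages derived from mouse bone marrow, either wild-type or Rad21-/-, where Rad21 encodes a subunit of the cohesin complex. Wild-type cells and Rad21-/- cells alike carried creERT2/creERT2 at the Rosa26 locus, and all cells were grown in L929-conditioned medium, a source of Csf1, and received 200 nM 4-hydroxytamoxifen, so that the controls were exposed to Cre and to the drug as well. Rad21-/- cells came from mice with floxed Rad21 alleles, and cells were used at day 7 of culture. They were left untreated or were given 10 ng/ml of LPS for 2 or 8 h, sorted singly into wells, and read by MARS-seq, which counts the 3′ ends of transcripts by unique molecular identifiers (UMIs).

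Of the wild-type cells, 239 were untreated and 257 had LPS for 8 h, and of the Rad21-/- cells 270 and 224. The 2 h samples held 372 cells, equally divided between the genotypes. Each genotype and time was 1 sample, so no difference has a replicate check and no test was run. The samples held 1417409 to 2195921 UMIs, with medians of 5577 to 7055.5 UMIs per cell. Of all wells, 17 held more than 25000 UMIs and carried 1.71% to 45.5% of the UMIs of their sample, the highest share in wild-type cells at 2 h. Levels are therefore the mean over cells of CPM, a gene's UMIs scaled to the same total in every cell, so that each cell weighs the same. No well name occurred in more than 1 column. All 9 macrophage markers listed were found, with a UMI of the list in 100% of cells of every sample.

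Rad21 itself had a mean of 60.9, 50.2 and 34.2 CPM in wild-type cells at 0, 2 and 8 h and 4.90, 8.15 and 8.60 CPM in Rad21-/- cells, so that the targeted gene was lower in the cells labelled Rad21-/- at every time. A B cell transcript, Ighm, also moved with genotype and was found in 17.2%, 10.8% and 8.56% of wild-type cells but 52.2%, 45.7% and 42.4% of Rad21-/- cells at the successive times. Ms4a1, a further B cell gene, was found in 3.33% to 9.14% of cells of a sample, with no such split, and the part of Ighm-positive wells in the results was not tested. Of the 5 B cell markers listed, only these 2 were in the matrix. Macrophages should lack Ms4a1, so shares of cells up to 9.14% are read with caution and called within the Ms4a1 range. That range is not a background shown to hold for all genes. The 2 neutrophil and progenitor markers in the matrix were found in 0% to 8.48% of cells of a sample. Whether Ms4a1 stood for background or for B cells was not tested.

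Upstream sequences of 3 members are shown because they differ in the CACGTG motif (E-box), the sequence that Myc with Max is known to bind. They are the 250 bases before the RefSeq start site in GRCm38.p6, 5′ to 3′ on the strand of the gene, with each E-box in capitals.
Cdk4, chr10:127063285-127063534, plus strand: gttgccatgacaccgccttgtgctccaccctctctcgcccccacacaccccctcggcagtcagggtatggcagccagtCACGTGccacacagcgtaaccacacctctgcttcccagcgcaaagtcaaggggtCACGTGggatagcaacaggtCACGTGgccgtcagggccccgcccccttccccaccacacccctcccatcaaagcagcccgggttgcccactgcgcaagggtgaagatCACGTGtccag
Cdk6, chr5:3343643-3343892, plus strand: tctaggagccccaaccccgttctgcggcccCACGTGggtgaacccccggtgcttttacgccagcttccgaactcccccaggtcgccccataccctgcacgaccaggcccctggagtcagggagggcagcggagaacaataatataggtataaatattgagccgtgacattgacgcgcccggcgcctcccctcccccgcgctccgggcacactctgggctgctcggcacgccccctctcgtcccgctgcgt
Cdkn2d, chr9:21291210-21291459, minus strand: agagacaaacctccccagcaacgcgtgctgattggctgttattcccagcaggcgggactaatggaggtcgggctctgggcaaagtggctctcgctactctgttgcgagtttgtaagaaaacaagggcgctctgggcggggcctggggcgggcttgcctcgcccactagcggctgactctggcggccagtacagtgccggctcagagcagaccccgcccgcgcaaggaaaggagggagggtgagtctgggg
The Cdk4 sequence held 4 E-boxes, of which the last 3 began 118, 98 and 11 bases before the start site, and the Cdk6 sequence held 1, at 220 bases. An E-box occurred in 1978 of 32851 upstream sequences of that length (6.02%), and 4 or more occurred in 7 (0.0213%). Sequences were given for 6 of the 10 members, Ccnd3 with a pair of start sites, and Ccnd3, Ccne1, Cdkn1b and Cdkn2d held no E-box. The motif reads the same on both strands. None of these sequences held, on either strand, the E2F motif TTTCGCGC or TTTGGCGC, found in 0.654% of all upstream sequences. A match in these letters is a description of the sequence and not a measured binding site.

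In GRCm38 coordinates, Ccnd1 lies on chromosome 7 (144929931 to 144939831), Ccnd2 on chromosome 6 (127125162 to 127152188) and Ccnd3 on chromosome 17 (47505051 to 47599689). Cdk4 lies on chromosome 10 (127063535 to 127067288), Cdk6 on chromosome 5 (3341004 to 3531008), Myc on chromosome 15 (61985341 to 61990361) and Cdkn2d on chromosome 9 (21288459 to 21291421). Ccne1 lies on chromosome 7 (38097984 to 38107490), Cdkn1b on chromosome 6 (134920401 to 134925525) and Rb1 on chromosome 14 (73192858 to 73325951). 4 members overlap an annotated gene that is also in the matrix, and reads in the overlap may have been counted for either gene. These neighbours had 0 to 6.30 CPM for 9330179D12Rik at Ccnd2, 7.03 to 23.1 CPM for Bysl at Ccnd3, 45.1 to 75.02 CPM for Tspan31 at Cdk4 and 1.58 to 5.03 CPM for Lpar6 at Rb1.

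**Figure D1:**
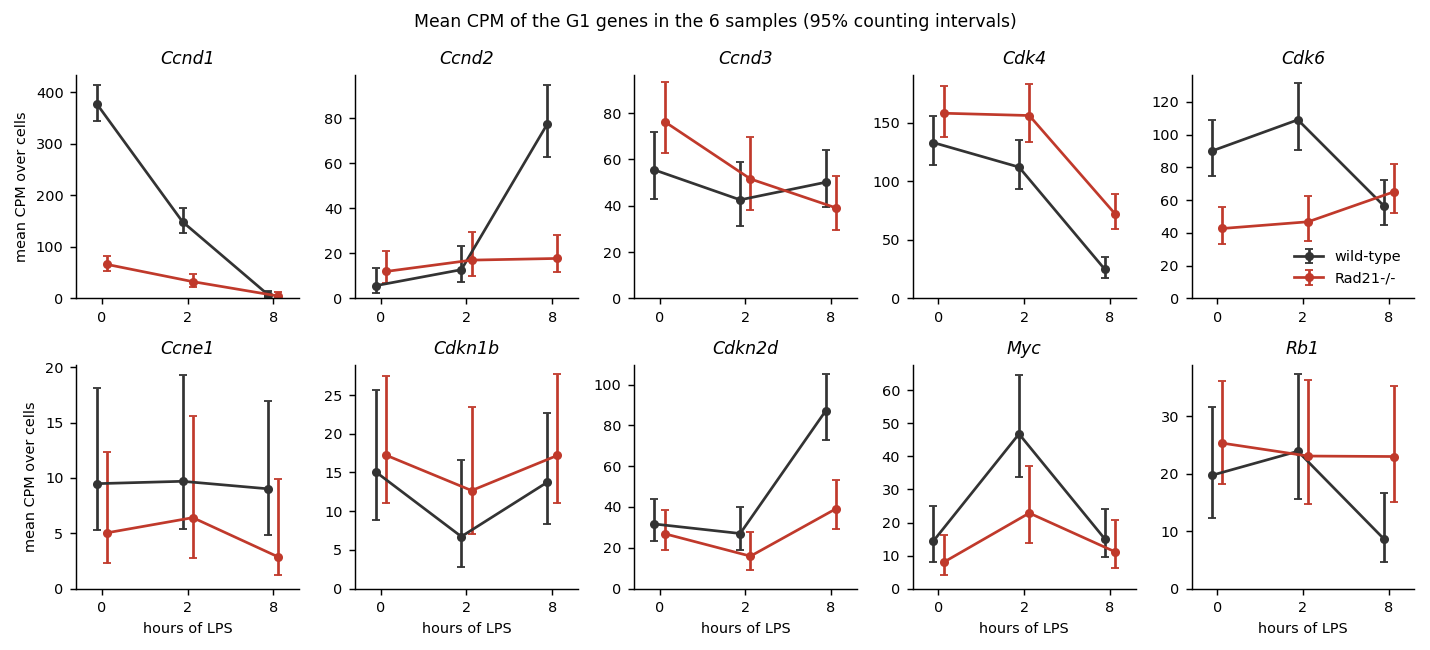
Mean CPM over cells (linear axis from 0) of the 10 genes against hours of LPS, in wild-type (black) and Rad21-/- (red) cells, 1 point per sample with a 95% counting interval. Ccnd1 starts at 378 CPM in wild-type and 65.9 CPM in Rad21-/- cells and ends below 10 in both, while Ccnd2 reaches 77.3 CPM at 8 h in wild-type cells against 17.7 CPM in Rad21-/- cells.

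Ccnd1, the cyclin most directly tied to growth factor signals, was the most abundant of the D cyclins in untreated wild-type cells and was almost lost with LPS. Wild-type cells had 378, 149 and 6.87 CPM at 0, 2 and 8 h, and Rad21-/- cells had 65.9, 32.4 and 4.41 CPM. The fraction of wild-type cells with a Ccnd1 transcript was 74.1%, 56.99% and 4.28%. In Rad21-/- cells it was 27.8%, 18.8% and 3.57%, so that both genotypes ended within the Ms4a1 range. In wild-type cells the log2 ratio of mean CPM was -1.34 at 2 h (counting interval -1.61 to -1.08) and -5.78 at 8 h against untreated cells (-6.88 to -4.69), the 2nd lowest of 8430 genes ranked. In Rad21-/- cells these ratios were -1.02 (-1.63 to -0.41) and -3.90 (-5.27 to -2.40), the latter the 6th lowest of 8427 genes. Over the 6 samples Ccnd1 spanned 6.42 on the log2 scale, the 63rd widest range of 8424 genes. In wild-type cells at 2 h, 1 well with 496955 UMIs held 168 of the 448 Ccnd1 UMIs (37.5%), and summed UMIs in place of the mean over cells gave a log2 ratio of -0.90 against untreated cells.

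Against wild-type cells, Ccnd1 was 5.73-fold lower in Rad21-/- cells before LPS (log2 ratio -2.52, interval -2.85 to -2.18) and 4.58-fold lower at 2 h (-2.20, -2.77 to -1.62). Pools are the sets of wells that share a code in their column names. The paper describes pooled cells with several pools per sequencing lane, and the names do not say what the code stands for. Each of the 24 pools held a single time point and 23 held both genotypes, so genotypes could be compared within a pool, whereas time and pool cannot be told apart. In several pools, wild-type and Rad21-/- wells took separate ranges of well barcodes. Genotype and barcode range cannot be told apart there. The pools split the 1 sample of each genotype and time, so they are not replicates. The share of all genes that agree in every pool, or whose pool ranges do not overlap, was not determined. Among pools with at least 10 cells of each genotype, Ccnd1 was lower in the Rad21-/- cells in 8 of 8 untreated pools, with 236 to 633 CPM in wild-type and 12.4 to 94.9 CPM in Rad21-/- cells, and the ranges did not overlap. At 2 h it was lower in 4 of 4 pools, 129.2 to 163.3 against 19.1 to 50.5 CPM, again without overlap. At 8 h Rad21-/- cells were lower in 3 of 6 pools. The 8 h log2 ratio of -0.64 had an interval of -2.35 to 1.20 and lay at -0.28 or -0.37 when either of 2 pools was left out.

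The genotypes differed in the fraction of cells with a Ccnd1 UMI and in the mean CPM of those cells. Of the untreated log2 ratio of Ccnd1, -1.41 came from the share of cells with a transcript and -1.10 from the mean CPM of those cells. At 2 h the parts were -1.60 and -0.60. A positive cell holds at least 1 UMI, and 51 of the 75 positive untreated Rad21-/- cells held exactly 1. A lower level per cell therefore also lowers the share, and the split does not separate them. Expected shares after thinning each cell to 3800 UMIs, which leaves out shallower cells (21 to 47 per sample), were 64.6%, 40.6% and 1.97% for wild-type cells, as against 19.7%, 10.96% and 1.79% for Rad21-/- cells. The genotype gap was 44.9 percentage points before and 29.6 points at 2 h of LPS on this scale, against 46.3 and 38.2 points with all UMIs. Of untreated cells, 36.8% of the wild-type and 2.22% of the Rad21-/- cells held 3 or more Ccnd1 UMIs.

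Ccnd2, a D cyclin best known from lymphocytes and ovarian granulosa cells, moved the opposite way in wild-type cells. It had 5.63, 12.7 and 77.3 CPM in wild-type and 11.9, 16.99 and 17.7 CPM in Rad21-/- cells at 0, 2 and 8 h. Its share of positive cells was 3.77%, 9.14% and 29.2% in wild-type cells, of which the first 2 are within the Ms4a1 range. In Rad21-/- cells it was 6.30%, 9.68% and 12.5%. Wild-type cells at 8 h were thus the only sample far above the rest. The log2 ratio of 8 h over untreated was 3.78 in wild-type cells, with an interval of 2.49 to 4.98, and 0.57 in Rad21-/- cells (-0.45 to 1.60). At 8 h, Ccnd2 was 4.36-fold lower in Rad21-/- than in wild-type cells (log2 ratio -2.12, -2.79 to -1.40), the 68th lowest of 8437 genes. The 6 pools compared at 8 h had 49.6 to 113.6 CPM in wild-type and 10.2 to 30.4 CPM in Rad21-/- cells, without overlap. The early wild-type ratio of 1.18 at 2 h of LPS (-0.32 to 2.64) was 0.23 without 1 pool of 47 wild-type cells, and the wild-type ratio of 8 h over 2 h moved from 2.60 to 3.55 without the same pool.

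Ccnd3, the third D cyclin, varied less over the 6 samples than Ccnd1 and Ccnd2, by 0.97 on the log2 scale, and 50.7% of all genes had a narrower range. It had 55.4, 42.5 and 50.1 CPM in wild-type and 76.2, 51.5 and 39.0 CPM in Rad21-/- cells. Its intervals between genotypes included 0 at all 3 times, with log2 ratios of 0.46, 0.28 and -0.36. In Rad21-/- cells it was lower at 8 h than before LPS, with a log2 ratio of -0.97 (-1.47 to -0.45), and its pools did not overlap, at 20.2 to 48.5 against 53.1 to 121.99 CPM. Most of this fall was seen in Rad21-/- cells with UMIs of at least 3 mitotic genes, at 131.1 CPM before LPS and 39.4 CPM at 8 h. Rad21-/- cells without a UMI of any mitotic gene had 44.4 and 36.9 CPM, with overlapping intervals. The part of mitotic cells in the fall was not tested.

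Each UMI stands for 1 molecule read at its 3′ end, so levels of the D cyclins were added without a length term, although capture can differ between genes. The summed level was 439, 204 and 134 CPM in wild-type and 154.02, 101 and 61.2 CPM in Rad21-/- cells. In wild-type cells Ccnd1 made up 86.1% of the sum before LPS, 72.9% at 2 h and 5.12% at 8 h, whereas Ccnd2 went from 1.28% through 6.25% to 57.5%. In Rad21-/- cells Ccnd3 was the largest component at each time, with 49.5%, 51.0% and 63.8%. A transcript of any D cyclin was found in 78.7% of untreated wild-type cells and 47.1% of those at 8 h, and in 54.1% and 35.3% of Rad21-/- cells. Of the wild-type cells at 8 h, 71 held Ccnd2 without Ccnd1, 7 held Ccnd1 without Ccnd2 and 4 held both.

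**Figure D2:**
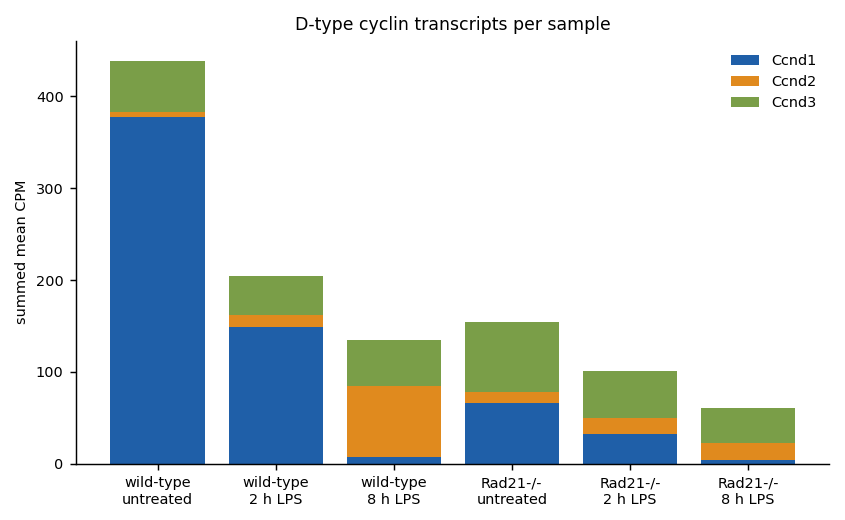
Stacked mean CPM (linear axis from 0) of Ccnd1, Ccnd2 and Ccnd3 in each of the 6 samples. The total is 439 CPM in untreated wild-type cells, nearly all Ccnd1, and 134 CPM at 8 h, where Ccnd2 is the largest component; in Rad21-/- cells Ccnd3 is the largest component throughout.

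Cdk4, a kinase partner of the D cyclins, stayed near its starting level at 2 h and was lower at 8 h in both genotypes, more so in wild-type cells. It had 133, 112 and 24.9 CPM in wild-type and 158, 156.03 and 72.2 CPM in Rad21-/- cells. Transcript-expressing cells made up 52.7%, 53.8% and 15.2% of wild-type and 54.1%, 61.3% and 42.4% of Rad21-/- cells. The log2 ratio of 8 h over untreated was -2.42 in wild-type (-2.96 to -1.86) and -1.13 in Rad21-/- cells (-1.48 to -0.77), and in neither genotype did the untreated pools overlap those at 8 h. Rad21-/- cells had 2.90-fold more Cdk4 at 8 h (log2 ratio 1.54, 0.95 to 2.11). Within pools they were higher in 5 of 6 at 8 h, and in 4 of 4 at 2 h, where the ratio was 0.48 (0.13 to 0.83) and the ranges did not overlap (141 to 170 against 84.2 to 135 CPM). Of the 8 h ratio, 1.48 came from the share of positive cells and 0.05 from the level in positive cells. Of the 39 positive wild-type cells at 8 h, 31 held 1 UMI, the least that a positive cell can hold. The split therefore cannot tell fewer expressing cells from a lower level per cell.

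Cdk6, the other kinase of the pair, was lower in Rad21-/- cells before and early after LPS, and the genotypes lay close together at 8 h. It had 90.1, 109 and 56.7 CPM in wild-type and 42.7, 46.8 and 65.1 CPM in Rad21-/- cells. Rad21-/- cells were 2.11-fold lower before LPS (log2 ratio -1.08, -1.54 to -0.60) and 2.33-fold lower at 2 h (-1.22, -1.71 to -0.72). They were lower in 8 of 8 untreated pools, whose ranges overlapped at 54.4 to 137.7 against 17.9 to 58.8 CPM, and in 4 of 4 pools at 2 h, 102 to 114.6 against 29.3 to 68.8 CPM, without overlap. At 8 h the ratio was 0.20, with an interval of -0.28 to 0.68 and 2 of 6 pools lower. Cdk6 transcripts were found in 98 of 239 wild-type cells before LPS, in 93 at 2 h and in 71 of 257 at 8 h. In Rad21-/- cells they were found in 55 of 270, in 48 at 2 h and in 77 of 224.

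**Figure D3:**
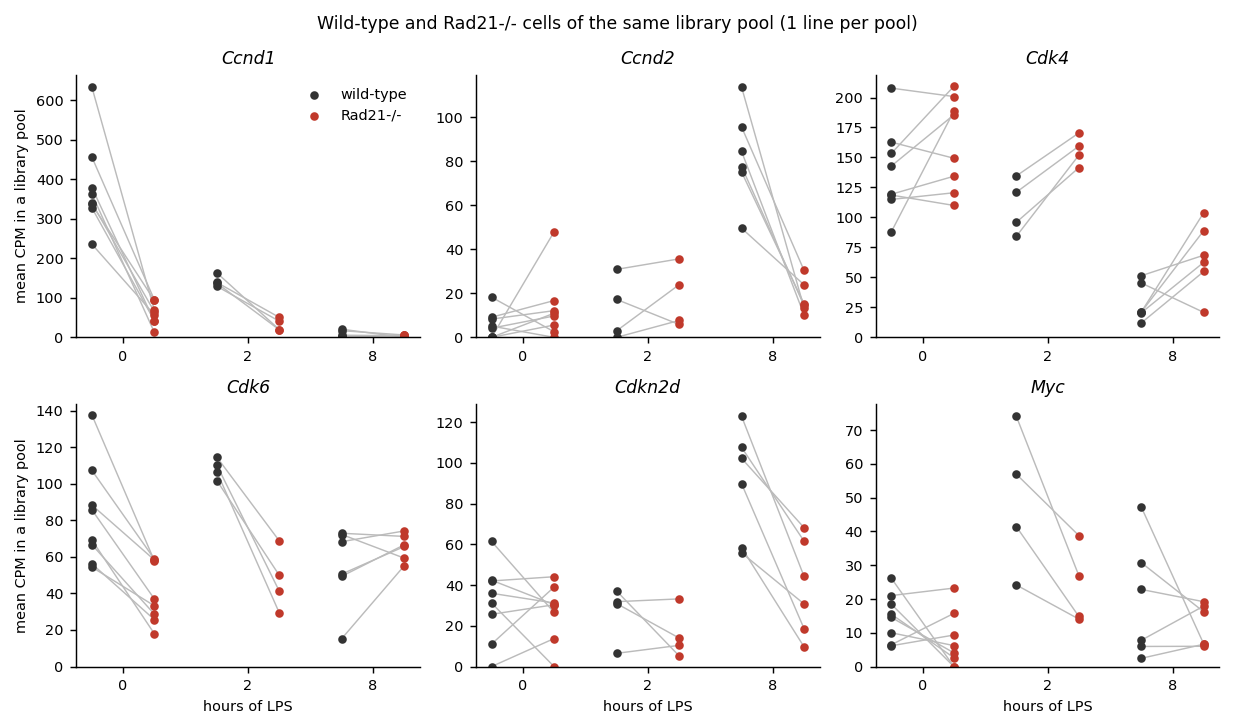
Mean CPM (linear axis from 0) of 6 members in wild-type (black) and Rad21-/- (red) cells of the same library pool before LPS and after 2 or 8 h, with 1 grey line per pool of at least 10 cells of each genotype. For Ccnd1 all 8 untreated and all 4 of the 2 h lines go down, and for Ccnd2 all 6 of the 8 h lines go down.

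Ccne1, the cyclin that acts with Cdk2 at entry into S phase, was scarce. It had 9.48, 9.70 and 9.02 CPM in wild-type and 5.04, 6.41 and 2.85 CPM in Rad21-/- cells. It was found in 3.70% to 6.45% of cells, within the Ms4a1 range. With 9 to 23 UMIs per sample, all of its intervals between genotypes included 0. It fell short of the minimum of 200 UMIs over the 6 samples that was set for counting genes past a fold.

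Among the inhibitors, Cdkn2d, which binds Cdk4 and Cdk6, was higher at 8 h in wild-type cells. It had 31.6, 27.0 and 87.3 CPM in wild-type and 26.9, 15.9 and 39.2 CPM in Rad21-/- cells, and the share of positive cells was 14.6%, 18.8% and 37.7% against 15.2%, 10.2% and 22.8%. The log2 ratio of 8 h over untreated was 1.46 in wild-type (0.92 to 1.99) and 0.54 in Rad21-/- cells (-0.13 to 1.21). At 8 h Rad21-/- cells were 2.23-fold lower (-1.16, -1.66 to -0.64), in 6 of 6 pools, although the ranges overlapped at 55.8 to 122.9 against 9.67 to 68.2 CPM. The Rad21-/- ratio of 2 h over untreated for Cdkn2d, -0.76 (-1.70 to 0.18), was -0.48 without 1 pool of 45 Rad21-/- cells and -1.38 without another. The 2 h genotype ratio, -0.77 (-1.73 to 0.19), was -0.32 without the former pool, and the Rad21-/- ratio of 8 h over 2 h, 1.30, was 1.92 without the latter.

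Cdkn1b, the inhibitor that accumulates in many resting cells, had 15.1, 6.72 and 13.7 CPM in wild-type and 17.2, 12.7 and 17.2 CPM in Rad21-/- cells. It was found in 5.91% to 12.5% of cells and also fell short of 200 UMIs. All of its intervals, between times and between genotypes, included 0.

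Myc had 14.4, 46.8 and 15.1 CPM in wild-type and 7.96, 22.9 and 11.1 CPM in Rad21-/- cells. It was highest at 2 h in both genotypes, in 20.4% of wild-type and 10.2% of Rad21-/- cells. The shares at the other times, 3.70% to 8.56%, were within the Ms4a1 range. The log2 ratio of 2 h over untreated was 1.70 in wild-type (0.78 to 2.64) and 1.52 in Rad21-/- cells (0.27 to 2.71). At 2 h Rad21-/- cells had 2.05-fold less (log2 ratio -1.03, -1.89 to -0.20) and were lower in 4 of 4 pools, with overlapping ranges. The fold of Myc therefore rests on 100 UMIs in wild-type and 24 in Rad21-/- cells at 2 h, and 30 of the former came from 1 well.

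Rb1, whose protein is the substrate of Cdk4 and Cdk6, had 19.7, 23.9 and 8.71 CPM in wild-type and 25.3, 23.1 and 23.0 CPM in Rad21-/- cells. The wild-type sample at 8 h was the low one, with a log2 ratio of -1.18 against untreated cells (-2.32 to -0.03). At 8 h Rad21-/- cells were 2.64-fold higher (log2 ratio 1.40, 0.29 to 2.50), in 5 of 6 pools. This ratio rests on 18 UMIs in wild-type cells, in 6.61% of them, a share within the Ms4a1 range, so the size of the fold is uncertain.

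**Figure D4:**
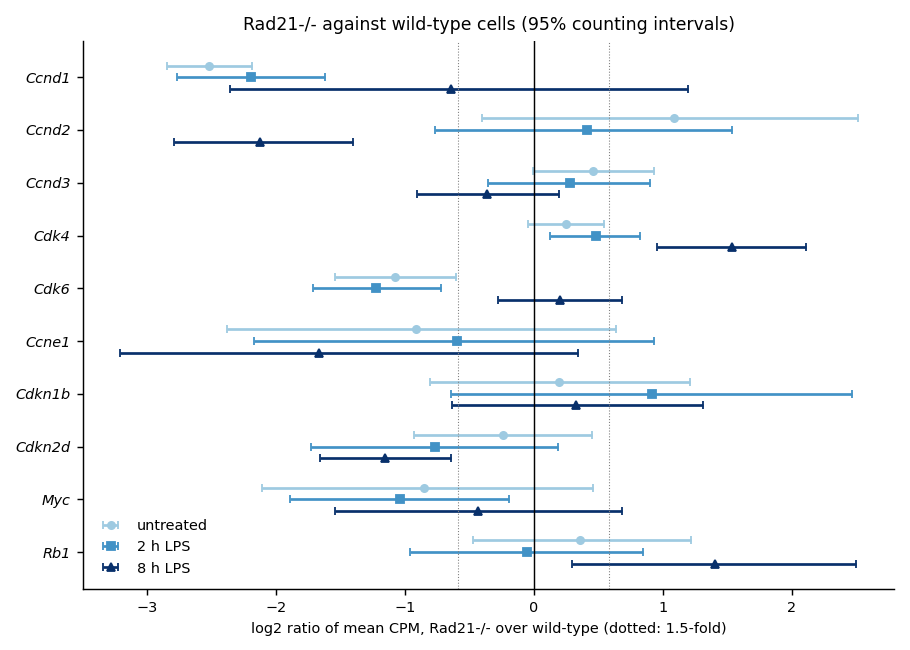
Log2 ratio of mean CPM, Rad21-/- over wild-type, for the 10 genes at 3 times, with 95% counting intervals and dotted lines at 1.5-fold. Ccnd1 and Cdk6 lie left of the dotted line before and at 2 h of LPS, and at 8 h Ccnd2 and Cdkn2d lie left while Cdk4 and Rb1 lie right of 0.

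Counts past 1.5-fold are given for the 8 members that reached 200 UMIs, beside all 8440 genes that did, and the 2 h and 8 h comparisons of a genotype share its untreated sample. In wild-type cells at 2 h of LPS, 2 members were higher and 1 lower, where 9.5% of all genes were higher and 13.1% lower. In wild-type cells at 8 h, 2 were higher and 4 lower than untreated (background 12.4% and 30.7%), with a median log2 ratio of -0.41 against -0.25 over all genes. From 2 h to 8 h, 2 were higher and 5 lower (12.1% and 25.8%), with a median of -1.20 against -0.20. Many of the lower calls in wild-type cells at 8 h thus fall in comparisons in which 25.8% or more of all genes lay lower. In Rad21-/- cells, 1 member was higher and 2 lower at 2 h (10.1% and 9.43%), 1 and 3 at 8 h (15.9% and 14.5%), and 1 and 3 from 2 h to 8 h (15.2% and 13.6%).

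Between genotypes, 1 member was at least 1.5-fold higher in Rad21-/- cells before LPS and 3 were lower (background 6.63% and 13.2%). At 2 h 0 were higher and 4 lower (10.9% and 13.1%), with a median log2 ratio of -0.41 against 0.02 over all genes. At 8 h 2 were higher and 3 lower (24.1% and 9.68%), with medians of -0.40 and 0.22. The members lower before LPS were Ccnd1, Cdk6 and Myc, with Ccnd2 higher, and at 2 h Cdkn2d joined the lower ones. At 8 h Ccnd1, Ccnd2 and Cdkn2d were lower, and Cdk4 and Rb1 were higher. Of the 1.5-fold calls between genotypes, the interval included 0 for Ccnd2 and Myc before LPS, for Cdkn2d at 2 h and for Ccnd1 at 8 h. Scaling by median ratios in place of total UMIs moved all log2 ratios by 0.26 in wild-type cells at 8 h against untreated, by 0.18 from 2 h to 8 h and by 0.22 between genotypes at 8 h, and turned the direction of no member past 1.5-fold. With this scaling the background was 11.4% higher and 10.2% lower at 2 h against untreated wild-type cells, 19.4% and 20.7% at 8 h against untreated, 16.9% and 18.4% from 2 h to 8 h, and 14.3% and 15.5% between genotypes at 8 h. Cdk6 then left the 1.5-fold calls of wild-type cells at 8 h against untreated (-0.41), and Myc, lower in Rad21-/- cells, joined those between genotypes at 8 h.

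The share of cells with mitotic transcripts also differed between samples, and the G1 genes were read with and without these cells. Cells with UMIs of at least 3 of 17 mitotic genes made up 34.7%, 32.8% and 7.39% of wild-type and 14.4%, 8.06% and 13.8% of Rad21-/- cells. Among cells without a UMI of any mitotic gene, Ccnd1 had 389 CPM in 66 untreated wild-type cells and 49.5 CPM in 104 untreated Rad21-/- cells (log2 ratio -2.97, -3.65 to -2.28). At 2 h these cells had 90.3 and 30.2 CPM (-1.58, -2.69 to -0.44). Cdk6 in the same cells had 107 against 28.5 CPM before LPS (-1.91, -2.99 to -0.86) and a ratio of -1.24 at 2 h. At 8 h the ratios in these cells were -2.17 for Ccnd2 (-3.42 to -0.79), -1.49 for Cdkn2d (-2.44 to -0.52), 1.60 for Cdk4 (0.60 to 2.64) and 2.06 for Rb1 (0.38 to 3.89). The Rb1 ratio rests on 17 UMIs in Rad21-/- and 5 in wild-type cells. The ratios given for cells without mitotic transcripts were as large as or larger than those over all cells, except that of Ccnd1 at 2 h, which was smaller. Each of their intervals held the ratio over all cells. In cells with at least 3 mitotic genes these differences had the same direction. Wild-type and Rad21-/- cells of this kind had 363.8 and 113.7 CPM of Ccnd1 before LPS and 170.7 and 37.1 CPM at 2 h. Cdk6 had 100.1 and 46.2 CPM before LPS and 121.2 and 68.9 CPM at 2 h. At 8 h Ccnd2 had 106.3 and 22.7 CPM, Cdk4 40.8 and 93.1 CPM and Rb1 11.5 and 24.1 CPM. Cdkn2d lay close at 8 h, with 69.2 and 60.2 CPM. The genotype intervals overlapped for all but Ccnd1 and Ccnd2. The part of cycling cells in the genotype differences was not tested. Within a sample, the intervals of mitotic and other cells were apart only for Ccnd3, in 1 of 6 samples. Overlapping intervals do not show that levels were equal. Mean CPM was higher in mitotic cells in 5 of 6 samples for Ccnd3, Cdk4, Cdk6, Ccne1, Cdkn1b and Cdkn2d. It was higher in 4 for Ccnd1, Ccnd2 and Rb1, and in 2 for Myc. Cells without mitotic transcripts were shallower, with medians of 4679 to 6337 UMIs against 6814 to 12484 in mitotic cells.

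**Figure D5:**
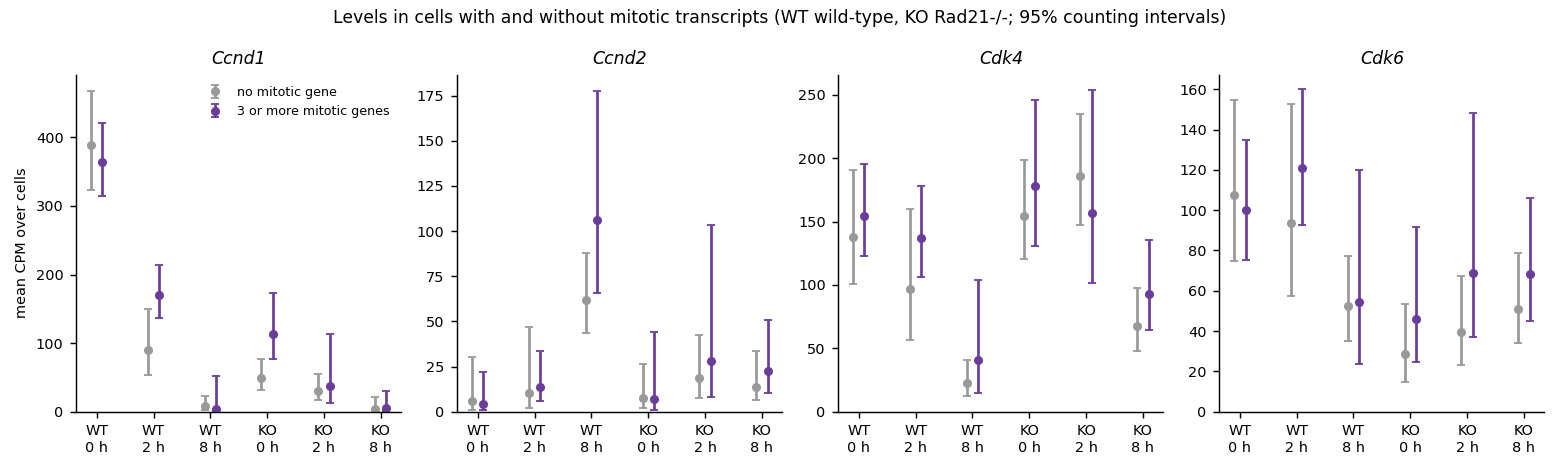
Mean CPM over cells (linear axis from 0) of Ccnd1, Ccnd2, Cdk4 and Cdk6 in cells with 3 or more mitotic genes (purple) and in cells with none (grey), in the 6 samples, with 95% counting intervals. The purple and grey intervals overlap in every sample for these 4 genes, while Ccnd1 in grey stands at 389 CPM in untreated wild-type and 49.5 CPM in untreated Rad21-/- cells.

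Other genes of the pathway were taken from lists of 25 G1 relatives, 12 Myc network genes, 20 Myc growth targets and 20 E2F and S-phase targets. Of 12 G1 relatives with 200 UMIs, 0 were 1.5-fold higher and 2 lower in Rad21-/- cells before LPS (background 6.63% and 13.2%), 0 and 2 at 2 h (10.9% and 13.1%), and 4 and 1 at 8 h (24.1% and 9.68%), counts that lie near the background. Cdkn1a (p21), a Cip/Kip inhibitor that p53 and stress signals induce, had the highest level of the inhibitors named here, with 332, 914 and 405 CPM in wild-type and 171.7, 770 and 243 CPM in Rad21-/- cells. It was present in 95.7% of wild-type and 94.1% of Rad21-/- cells at 2 h. Cdkn2c, an Ink4 inhibitor related to Cdkn2d, moved the opposite way to Cdkn2d in wild-type cells, with 25.1, 24.1 and 3.33 CPM. In Rad21-/- cells Cdkn2c had 33.5, 27.7 and 13.3 CPM, and its 8 h log2 ratio between genotypes was 2.00. The wild-type level at 8 h rests on 6 UMIs in 2.33% of cells, within the Ms4a1 range, so the size of this ratio is uncertain. Cks1b, an adaptor that helps mark Cdkn1b for degradation, had a log2 ratio of -1.96 between genotypes at 2 h and 1.17 at 8 h. E2f1, a target and partner of the Rb protein, had 33.3, 29.4 and 5.50 CPM in wild-type and 23.3, 28.2 and 9.74 CPM in Rad21-/- cells. Wild-type levels at 8 h rest on 14 UMIs for Cks1b and 11 for E2f1. These were found in 5.45% and 3.50% of cells, within the Ms4a1 range.

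Of 8 E2F and S-phase targets, 7 were lower and 0 higher in Rad21-/- cells before LPS, and likewise 7 and 0 at 2 h, with medians of -1.32 and -1.65, where 13.2% and 13.1% of all genes were lower. At 8 h 2 were lower and 1 higher (background 9.68% and 24.1%). Cdt1, which licenses replication origins, had a log2 ratio of -1.704 before LPS and -3.14 at 2 h, whereas Slbp, which binds histone mRNA, had -0.11 and -0.44. The helicase subunit gene Mcm3 was the one that was higher at 8 h, with 19.9 CPM in Rad21-/- and 3.97 CPM in wild-type cells. In wild-type cells 6 of the 8 were lower at 8 h than before LPS (background 30.7%), with a median of -1.82, and in Rad21-/- cells 4 were (14.5%), with a median of -0.58. Of 9 mitotic genes with 200 UMIs, 8 were lower in Rad21-/- cells before LPS and 9 at 2 h (13.2% and 13.1%), whereas at 8 h 1 was lower and 2 were higher (9.68% and 24.1%), with a median of 0.32. Mki67, a marker of cycling cells, had 73.9, 87.2 and 17.7 CPM in wild-type and 34.996, 25.7 and 22.8 CPM in Rad21-/- cells.

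In the Myc network, Mxd1, a repressor that competes with Myc for Max, had 14.7, 73.96 and 147.2 CPM in wild-type and 12.8, 24.7 and 21.8 CPM in Rad21-/- cells. The log2 ratio of Mxd1 between genotypes was -1.58 at 2 h and -2.76 at 8 h. Mxd4, a relative of Mxd1, went the other way, with a ratio of 1.05, 1.53 and 1.82 at the 3 times. Max, the shared partner, had 43.6 to 63.3 CPM in all samples. Of 10 Myc growth targets, which serve ribosome assembly, polyamine synthesis and protein folding, 3 were lower in Rad21-/- cells before LPS (background 13.2%), 4 were lower at 2 h (13.1%) and 7 were higher at 8 h (24.1%, or 14.3% with median-ratio scaling), with medians of -0.18, -0.38 and 1.13 against -0.04, 0.02 and 0.22 over all genes. Srm, a polyamine synthesis gene, had 33.7, 21.8 and 10.2 CPM in wild-type and 14.98, 12.2 and 24.5 CPM in Rad21-/- cells. In wild-type cells 8 of the 10 were lower at 8 h than before LPS (30.7%), and in Rad21-/- cells 1 was lower and 2 were higher (14.5% and 15.9%).

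Upstream of the D cyclins, Csf1r, the receptor for Csf1, was higher in Rad21-/- cells at all times, and lowest in wild-type cells at 8 h. It had 294, 304 and 130 CPM in wild-type and 457, 518 and 306 CPM in Rad21-/- cells, and was higher in the Rad21-/- cells in 8 of 8, 4 of 4 and 6 of 6 pools. Of 8 genes of the Csf1 receptor and ERK list, 2 were higher and 2 lower in Rad21-/- cells before LPS (6.63% and 13.2%). Dusp4, an ERK phosphatase that ERK signals induce, was lowest with a log2 ratio of -1.49, and Egr1, an immediate-early gene, was highest with 1.33. At 2 h Dusp6, another ERK phosphatase, had 3.65 CPM in wild-type and 30.4 CPM in Rad21-/- cells, from 66.3 and 76.8 CPM before LPS.

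The genes whose centred log2 levels over the 6 samples lay nearest to those of the 3 members with the widest ranges were sought among 8416 genes. Those nearest to Ccnd1 were Hist1h1b, Cenpa, Cdca3, Cdk1 and 2810417H13Rik, at distances of 1.84 to 2.55 log2 units, and most are known from dividing cells. Hist1h1b had 62.8, 56.8 and 1.25 CPM in wild-type and 33.3, 6.72 and 2.78 CPM in Rad21-/- cells. Nearest to Ccnd2 were Mt2, Sbno2, Vcan, Hmgn3 and Fabp3, at 0.738 to 1.06, of which Mt2, a metallothionein, reached 1665 CPM in wild-type cells and 306 CPM in Rad21-/- cells at 8 h. Among those nearest to Cdk4 were Gm12353, Etv5, R3hdm4 and Npc1, at 0.307 to 0.427. These distances over 6 samples, which share library pools, are descriptions of likeness.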

How the data were processed

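MARS-seq UMI counts of single macrophages were used. The authors mapped reads to GRCm38 with GEMTools and the Gencode annotation, filtered wells, collapsed UMIs and deposited counts per gene and cell without normalization; whether strand was used in counting is not given in the sources used here. All 1362 columns were assigned to a sample by name, 2 rows with the same symbol were summed, and no doublet caller was run on the singly sorted cells. CPM used the total UMIs of a cell. Shares carry Clopper-Pearson, levels gamma (Fay-Feuer) and log2 ratios combined (MOVER) 95% intervals, which cover counting error only. Shares after thinning to 3800 UMIs are exact expectations. With 1 sample per group no test was run. A fold of 1.5 was read over 8440 genes with at least 200 UMIs.

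The members and lists were chosen with earlier results of these data known. Named genes were all members, the 5 genes nearest in pattern to the 3 members with the widest range, the highest and lowest 2 of each list in a described comparison, and Cdkn1a, E2f1, Max, Mxd1, Mki67 and Csf1r. Ighm, Ms4a1 and overlapping neighbours were chosen after their values were seen. One gene that the pattern rule names is not reported here. Alternatives were summed UMIs, median-ratio size factors, deeper cells, no deep wells, equal weight per pool, thinning, at least 2 UMIs, other filters, a 2-fold limit and leaving out each pool; cells without mitotic genes were added after seeing the data. Python 3.11.15, numpy 2.4.6, pandas 2.3.3, scipy 1.17.1 and matplotlib 3.10.9 were used, and the steps were tested on simulated data. Upstream sequences and coordinates are from RefSeq in GRCm38.p6.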

Additional observations from a re-analysis of the deposited data

Results flagged for a closer look

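Cdk6 moved in opposite directions with 8 h of LPS in the 2 genotypes. The log2 ratio of 8 h over untreated was -0.67 in wild-type cells and 0.61 in Rad21-/- cells, with 1 sample per group. The difference between these ratios was not tested. The wild-type ratio was -0.47 without 1 untreated pool of 47 wild-type cells, and the Rad21-/- ratio lay between 0.51 and 0.73 over fits that each omitted 1 pool. With median-ratio scaling the wild-type ratio was -0.41 and the Rad21-/- ratio did not move.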

How the results depend on the processing

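No paired analysis was possible because there were no replicate samples to pair, and the genotypes were compared within library pools as a description. No log2 ratio past 1.5-fold of a member with 200 UMIs changed sign under any alternative run. Of all 90 ratios of members, 30 changed sign under at least 1 alternative, 21 of them in cells without mitotic genes, and in 29 of the 30 the counting interval included 0. The other was Ccnd3 in Rad21-/- cells at 2 h against untreated, -0.56 with all cells and 0.22 in cells without mitotic genes, and the cause was not tested. The number of the 8 members past 1.5-fold in Rad21-/- cells at 8 h against untreated was 2 with a 2-fold limit, against 4. Leaving out each pool in turn gave 2 to 3 members for wild-type 2 h against untreated, 5 to 6 for 8 h against untreated, 7 for 8 h against 2 h, 3 to 5, 3 to 7 and 4 to 6 for the same comparisons in Rad21-/- cells, and 4, 3 to 6 and 4 to 5 between genotypes at 0, 2 and 8 h. Of the values of log2 ratios under all alternatives, 20 moved past their counting error and 1787 did not. The 1787 include 90 differences in share, which were checked for direction only. They also include the runs that left out 1 pool, which keep most cells. Of these 20, 17 were in cells without mitotic genes. Of differences in share, 27 moved and 423 did not, 18 of them when 2 UMIs were asked for. Without a filter beyond 1 UMI, 11 of 18 background percentages moved by over 1.5 times. Depth limits Ccne1 and Cdkn1b most.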
